A study of Mus musculus with 16 samples.

Results

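The genes described here handle iron in the cell: Tfrc (the transferrin receptor), Slc40a1 (ferroportin), Slc11a2 (the divalent metal transporter DMT1), Fth1 and Ftl1 (ferritin heavy and light chains), Trf (transferrin), Aco1 and Ireb2 (the iron regulatory proteins IRP1 and IRP2). They were taken by symbol from a table of 24982 gene entries, which held all 8, and all 8 were among the 15507 genes that passed a filter on low counts. The set was chosen because Tfrc was higher after adjuvant in both genotypes, so adjuvant differences of these genes are given below as values without a test. RNA was sequenced from lumbar dorsal root ganglia (levels 4 to 6, side of the injected ankle) of C57BL/6 mice aged 10 to 12 weeks. Knock-in mice named TrkA/C (KI) and wild-type mice (WT) had received complete Freund's adjuvant (CFA) or vehicle in the ankle joint 14 days earlier. CFA is an oil suspension that causes lasting joint inflammation, and the sample titles name the vehicle as saline. The groups were KI CFA, KI vehicle, WT CFA and WT vehicle, with 4 libraries each, and every library pooled 6 ganglia from 2 mice. The labels do not describe the knock-in construct or the cells that carry its product.

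Library totals ran from 22742209 to 40910947 counts. Ntrk3, which encodes TrkC, lay between 99.1 and 138 CPM (counts divided by the library total and scaled by 1e+06, TMM-normalised) in the 8 KI libraries and between 29.3 and 61.4 CPM in the 8 WT libraries. The genotype tag of WT CFA 1 names the knock-in although its title names WT; it had 48.4 CPM, among the other WT libraries. Sensory neuron markers were present throughout, with summed levels from 14275 to 16639 CPM. A few libraries stood apart in markers of other cells. Neutrophil markers summed to 281 CPM in KI CFA 3, against 38.8 or less elsewhere, satellite glia markers summed to 5068 CPM in WT vehicle 4, against 3981 or less elsewhere, and skeletal muscle markers to 985 and 860 CPM in KI vehicle 1 and 4, against 188 or less elsewhere. The 4 globin genes of the erythroid list were listed at 0 in every library. Why they were at 0 was not tested, so this does not show that blood was absent, and the erythroid sums hold no globin counts.

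Cells take up iron when transferrin, the iron carrier of plasma, binds the transferrin receptor and enters endosomes. There the iron is reduced and released to the cytosol by DMT1, stored in ferritin or sent out by ferroportin. IRP1 and IRP2 bind a short RNA hairpin, the iron-responsive element, when cellular iron is low: bound at the 5′ end of a message they block translation of ferritin and ferroportin, and bound in the 3′ UTR they protect the Tfrc message from decay. In peripheral nerve, glial cells are known to make transferrin.

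The hairpins are shown because they are the sites through which IRP1 and IRP2 are known to control the ferritin, ferroportin and Tfrc messages. GENCODE M21 transcripts (GRCm38, the same assembly as mm10) were searched on the sense strand for the loop CAGTG followed by A, C or T. A bulged C had to be placed 5 bases before the loop. At least 4 of 5 pairs were required in the upper stem and at least 3 of 6 in the lower stem. Capitals mark the loop.
Tfrc 3′ UTR, chr16:32631219-32631247, plus strand: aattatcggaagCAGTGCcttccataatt
Tfrc 3′ UTR, chr16:32631598-32631626, plus strand: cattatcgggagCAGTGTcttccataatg
Tfrc 3′ UTR, chr16:32631663-32631691, plus strand: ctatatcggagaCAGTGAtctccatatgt
Tfrc 3′ UTR, chr16:32631710-32631738, plus strand: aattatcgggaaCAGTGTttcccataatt
Slc40a1 5′ UTR, chr1:45925465-45925493, minus strand: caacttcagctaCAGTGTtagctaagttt
Fth1 5′ UTR, chr19:9982732-9982760, plus strand: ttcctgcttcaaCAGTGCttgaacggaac
Ftl1 5′ UTR, chr7:45459779-45459807, minus strand: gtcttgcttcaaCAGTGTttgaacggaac

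The 3′ UTR of Tfrc held 4 matches, and the 5′ UTRs of Slc40a1, Fth1 and Ftl1 held 1 match each. Among 21875 protein-coding genes, 0.229% had a match in a 5′ UTR and 1.3% in a 3′ UTR. The search found no match in protein-coding transcripts of Slc11a2, Trf, Aco1 or Ireb2. It would miss an element with another loop, another bulge or a further bulge in the stem, so these genes may still carry one. A match is a run of letters and was not measured as a binding site here.

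Levels of different genes were compared as CPM per kilobase of the main transcript. Over the 16 libraries the means ran from Fth1 (1703 CPM per kilobase) through Ftl1 (562), Tfrc (24.6), Ireb2 (13.0), Trf (11.5), Slc11a2 (8.24) and Aco1 (7.75) to Slc40a1 (0.654). Ferritin messages were the most abundant and ferroportin the least. Ranges over libraries did not overlap between Fth1, Ftl1, Tfrc and Ireb2, and Slc40a1 lay below all others. Neighbours in the middle of the order overlapped: Ireb2 (11.9 to 14.5 CPM per kilobase) with Trf (7.18 to 15), Trf with Slc11a2 (6.86 to 9.83), and Slc11a2 with Aco1 (6.26 to 8.89). The coefficient of variation of the CPM values was smallest for Ireb2 (5.65%) and largest for Slc40a1 (26.2%), which rested on 42 to 124 counts per library. In ganglia, fewer cells of a type and less RNA per cell cannot be told apart.

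**Figure D1:**
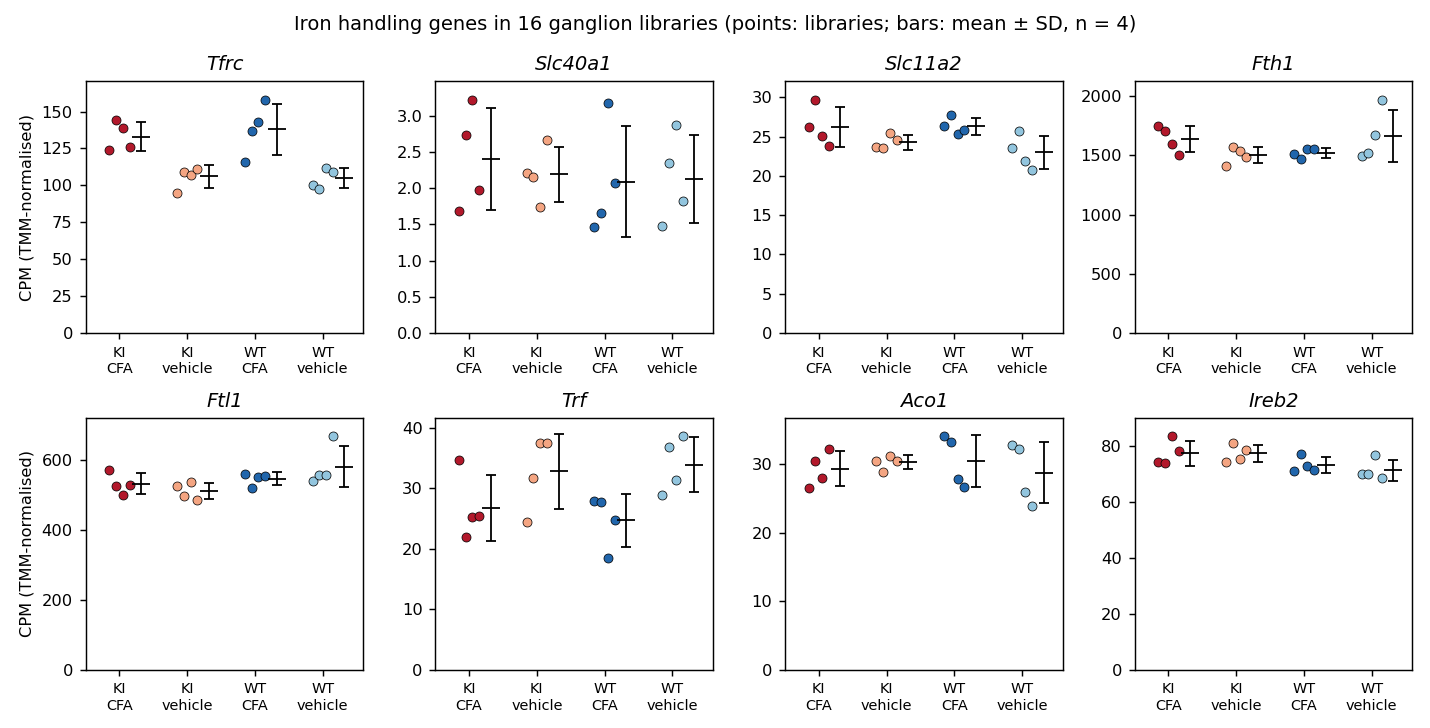
CPM (TMM-normalised, vertical axes from 0) of the 8 iron handling genes in each library of the KI CFA, KI vehicle, WT CFA and WT vehicle groups; points are libraries and bars are the mean ± SD (n = 4). Tfrc libraries of both CFA groups (116 to 158 CPM) lie above those of both vehicle groups (94.5 to 112 CPM).

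Tfrc (Entrez 22042, chr16:32608896-32632794, mm10) brings transferrin-bound iron into the cell. In KI mice it had 124, 144, 139 and 126 CPM with CFA, against 94.5, 109, 107 and 111 CPM with vehicle. In WT mice it had 116, 137, 143 and 158 CPM with CFA, against 100, 97.8, 112 and 109 CPM with vehicle. The lowest CFA library lay above the highest vehicle library in each genotype, as for 2.28% of genes in KI and 1.53% in WT, and also when all 8 CFA libraries were set against all 8 vehicle libraries, as for 0.058% of genes. Means were 133 ± 9.7 CPM in KI CFA and 106 ± 7.57 CPM in KI vehicle, and 138 ± 17.4 CPM in WT CFA and 105 ± 6.99 CPM in WT vehicle (SD, n = 4 each). The log2 difference of CFA from vehicle was 0.34 ± 0.08 (SE) in KI and 0.40 ± 0.08 in WT, that is 1.26-fold and 1.32-fold. These values chose the gene and are given as a description. The difference between genotypes of these changes was -0.06 ± 0.12 on the log2 scale (95% interval -0.29 to 0.16, from 1.96 SE on each side).

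As background, groups did not overlap, with CFA higher, in both genotypes for 20 of 15507 genes (0.129%). For the mean CFA difference of both genotypes edgeR called 4 genes (0.0258%) at an adjusted p under 0.05, and 0 to 39 genes when single libraries were left out. In WT alone edgeR called 0 genes (0%), with 1079 (6.96%) at an unadjusted p under 0.05, while DESeq2 called 11 and limma-voom 1. In KI alone it called 0 (0%), with 881 (5.68%) at an unadjusted p under 0.05, while DESeq2 called 15 and limma-voom 0.

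No genotype difference of Tfrc passed the test. With vehicle, KI averaged 106 CPM and WT 105 CPM, a log2 difference of 0.01 ± 0.08 (95% interval -0.15 to 0.17, edgeR adjusted p = 0.959). With CFA, KI averaged 133 CPM and WT 138 CPM, a log2 difference of -0.05 ± 0.08 (95% interval -0.21 to 0.11, edgeR adjusted p = 0.903).

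The source names of the WT libraries carry numbers, and earlier results of these data had shown that numbers 1 to 5 and 6 to 9 differ. Within WT source numbers 1 to 5 the mean of Tfrc was 126 CPM with CFA and 98.9 CPM with vehicle, and within 6 to 9 it was 150 CPM with CFA and 111 CPM with vehicle (2 libraries each). Because the WT groups of Tfrc do not overlap, CFA is the higher in any such split, here by 0.35 and 0.44 on the log2 scale. Tfrc was also higher in WT numbers 6 to 9 than in 1 to 5, by 0.21 ± 0.07 (SE) on that scale. In KI the source numbers were 5, 6, 9 and 10 with CFA and 1, 2, 3 and 8 with vehicle. The injections are thus not balanced over the numbers in KI, and the part of source number in the KI values of Tfrc was not tested. Markers of dividing cells, in which Tfrc is known to be high, summed to between 53.7 and 77.1 CPM in KI CFA, 49.7 and 55.6 CPM in KI vehicle, 50.4 and 56 CPM in WT CFA, and 51.6 and 62 CPM in WT vehicle. The highest value was that of KI CFA 3, which also had the high neutrophil sum, and the part of these cells in the Tfrc values was not tested.

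The medians of other marker sums also differed between the injections in both genotypes. They were lower with CFA for skeletal muscle, Schwann cells, macrophages and endothelial cells. They were higher with CFA for sensory neurons, as for the markers of dividing cells. The Schwann cell, macrophage and endothelial sums overlapped between the injections in both genotypes. Skeletal muscle markers summed to between 63.4 and 171 CPM in KI CFA and 107 and 985 CPM in KI vehicle, and to between 42.6 and 49.7 CPM in WT CFA and 48.5 and 158 CPM in WT vehicle. All 11 were detected, and for the mean CFA difference edgeR called 0 of them, with 10 at an unadjusted p under 0.05, as for 6.57% of all genes. These markers also differed between genotypes: edgeR called 8 of the 11 higher in KI as the mean of both injections, where 8.96% of all genes were called. With vehicle it called 5 (4.34% of all genes), and with CFA 1, Pvalb (2.84%). With CFA, Pvalb was also the only 1 of the 11 at an unadjusted p under 0.05. Which cells of the ganglia gave the Pvalb difference was not tested. Sensory neuron markers summed to between 14849 and 16639 CPM in KI CFA and 14275 and 14868 CPM in KI vehicle, and to between 15317 and 16326 CPM in WT CFA and 14384 and 15448 CPM in WT vehicle. Of these 10 markers edgeR also called 0, with 5 at an unadjusted p under 0.05, and their part in the Tfrc values was not tested. The muscle score used as a covariate was the mean log2 CPM of the 11 muscle markers, Pvalb among them, so it carries their genotype difference. With the muscle score as a covariate the log2 difference of Tfrc was 0.35 in KI and 0.41 in WT, and without KI vehicle 1 and 4 it was 0.30 in KI and 0.40 in WT. Leaving out each library in turn gave a log2 difference of Tfrc between 0.29 and 0.37 in KI and between 0.33 and 0.48 in WT. All these fits reuse the values that chose the gene, so they are a description, and the part of muscle was not tested.

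Among the genes most like Tfrc over the 16 libraries, of 13738 genes whose mean reached 1 CPM, were Rhov (Pearson r of log2 CPM 0.849), Nptx2 (0.774), Ptpn9 (0.766) and Pim3 (0.765). Rhov had 34.1, 36.6, 34.3 and 36.8 CPM in KI CFA against 30.6, 33.7, 29.5 and 32.6 CPM in KI vehicle, and 34, 34.3, 38.3 and 38.8 CPM in WT CFA against 28.7, 32.4, 32.3 and 33.5 CPM in WT vehicle. As with Tfrc, its CFA libraries lay above the vehicle libraries in each genotype. These correlations describe libraries that share the injection groups and carry no test. Among the other members r with Tfrc ran from -0.592 for Trf to 0.511 for Slc11a2.

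Slc11a2 (Entrez 18174, chr15:100387898-100424209) encodes the transporter that moves iron out of the endosome after the receptor has delivered it. It had 26.2, 29.7, 25.1 and 23.8 CPM in KI CFA against 23.7, 23.5, 25.5 and 24.6 CPM in KI vehicle. It had 26.3, 27.8, 25.3 and 25.8 CPM in WT CFA against 23.6, 25.7, 21.9 and 20.7 CPM in WT vehicle. CFA and vehicle libraries overlapped in both genotypes. The log2 difference of CFA from vehicle was 0.11 ± 0.08 in KI and 0.19 ± 0.08 in WT. Between genotypes it was 0.08 ± 0.08 with vehicle (edgeR adjusted p = 0.576) and -0.01 ± 0.08 with CFA (edgeR adjusted p = 0.994), so neither passed the test. An exon overlaps Gm5475 on the opposite strand, but that gene had at most 5 counts in a library.

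Trf (Entrez 22041, chr9:103208876-103230286), the carrier that the receptor binds, differed from vehicle in the opposite direction to Tfrc. It had 34.7, 22, 25.2 and 25.4 CPM in KI CFA against 24.4, 31.7, 37.5 and 37.5 CPM in KI vehicle. It had 27.9, 27.7, 18.5 and 24.8 CPM in WT CFA against 28.9, 36.8, 31.4 and 38.6 CPM in WT vehicle. The WT groups did not overlap, as for 1.48% of genes that were lower with CFA in WT, and the KI groups did overlap. Its log2 difference of CFA from vehicle was -0.29 ± 0.16 in KI and -0.46 ± 0.16 in WT. Between genotypes the log2 difference of Trf was -0.05 ± 0.16 with vehicle (edgeR adjusted p = 0.891) and 0.12 ± 0.16 with CFA (edgeR adjusted p = 0.886). Schwann cell markers, all 10 of them detected, summed to between 4270 and 5377 CPM in KI CFA, 3835 and 5127 CPM in KI vehicle, 3621 and 4917 CPM in WT CFA, and 4188 and 5624 CPM in WT vehicle. The medians of these sums were 4695 CPM in KI CFA and 4936 CPM in KI vehicle, and 4389 CPM in WT CFA and 4891 CPM in WT vehicle. The part of Schwann cells in the Trf values was not tested. Of the 50-base windows of the Trf transcript, 79.8% also lie in the read-through gene Gm20425, so reads of both could have been counted together or dropped.

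**Figure D2:**
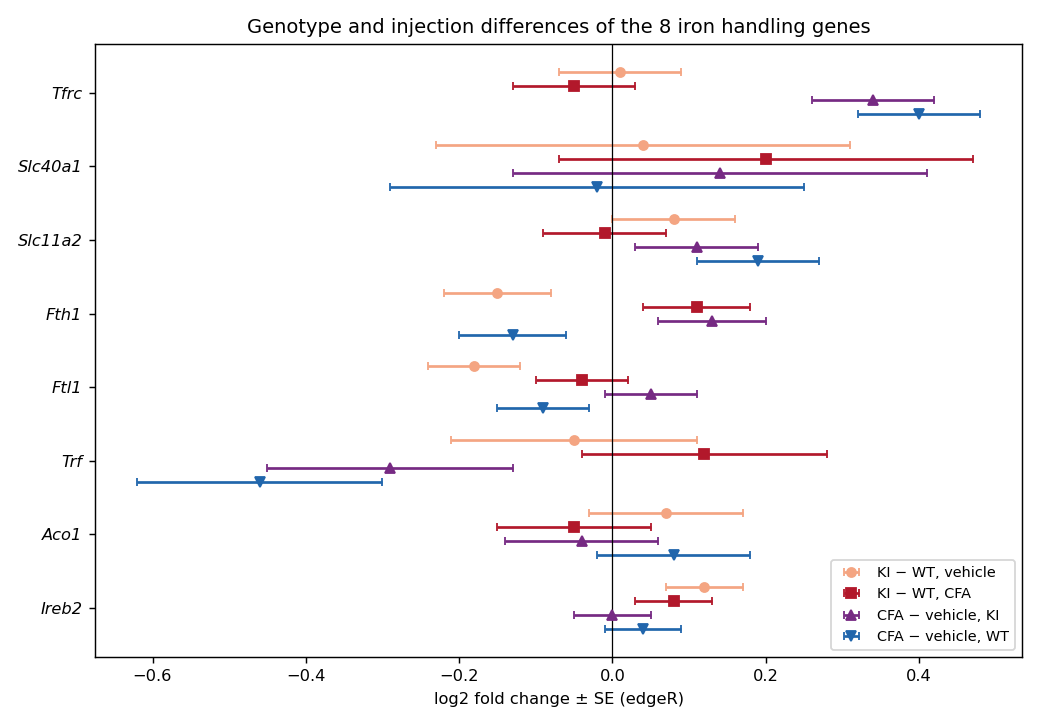
Log2 fold changes ± SE (horizontal axis) of the 8 iron handling genes, from edgeR, for KI minus WT with vehicle and with CFA and for CFA minus vehicle in KI and in WT. Tfrc lies to the right for both CFA differences (0.34 and 0.40), Trf to the left (-0.29 and -0.46), and the genotype differences of all 8 genes lie between -0.18 and 0.20.

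Ferritin stores iron as a shell of heavy chains, which oxidise it, and light chains, which help to form its mineral core. Fth1 (Entrez 14319, chr19:9980600-9985111) had 1751, 1710, 1601 and 1502 CPM in KI CFA, against 1509, 1470, 1554 and 1556 CPM in WT CFA. It had 1414, 1575, 1534 and 1489 CPM in KI vehicle, against 1494, 1519, 1670 and 1971 CPM in WT vehicle. The genotypes overlapped under both injections, and WT vehicle 4 was the highest library. Its log2 genotype difference was 0.11 ± 0.07 with CFA (edgeR adjusted p = 0.63) and -0.15 ± 0.07 with vehicle (edgeR adjusted p = 0.229). Without WT vehicle 4 the vehicle difference was -0.05. The interaction of genotype and injection was 0.25 ± 0.10 for Fth1 (unadjusted p = 0.0231, edgeR adjusted p = 0.718), and 0.16 without WT vehicle 4.

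Ftl1 (Entrez 14325, chr7:45457944-45459886) was the member nearest to a genotype call. It had 528, 498, 537 and 488 CPM in KI vehicle, against 542, 558, 559 and 669 CPM in WT vehicle. These groups did not overlap, as was the case for 7.89% of genes, lower in KI. The log2 difference was -0.18 ± 0.06 (95% interval -0.30 to -0.06, unadjusted p = 0.00939, edgeR adjusted p = 0.0916), lower in 4 of 4 KI libraries than the WT mean. It was -0.11 without WT vehicle 4, a library with the highest satellite glia sum. With WT source number as a covariate the difference was -0.18 and was called (edgeR adjusted p = 0.0448), while the range over all alternatives was 0.0448 to 0.39.

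With CFA, Ftl1 had 574, 526, 501 and 530 CPM in KI and 561, 521, 554 and 555 CPM in WT, and the groups overlapped (-0.04 ± 0.06, edgeR adjusted p = 0.901). Of its 50-base windows, 90.6% occur in other annotated genes, among them the pseudogenes Ftl1-ps1, Ftl1-ps2 and Ftl2-ps, so its level depends on how such reads were counted. For Fth1 that share was 6.59%. The ratio of Fth1 to Ftl1 counts, a measure chosen after the values were seen, was 3.08 ± 0.186 in KI CFA and 2.78 ± 0.0615 in WT CFA (SD, n = 4 each). The exact two-sided permutation p of that ratio was 0.0286, the smallest this design allows, and 0.171 after adjustment over 6 ratio tests. With vehicle the ratio was 2.94 in KI and 2.85 in WT (exact permutation p = 0.543).

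Slc40a1 (Entrez 53945, chr1:45908070-45926532), the only known exporter of iron from cells, had the fewest counts of the members. It had 1.69, 2.73, 3.22 and 1.97 CPM in KI CFA, 2.21, 2.15, 1.74 and 2.67 CPM in KI vehicle, 1.46, 1.66, 3.17 and 2.07 CPM in WT CFA, and 1.48, 2.34, 2.87 and 1.82 CPM in WT vehicle. All groups overlapped. Its log2 genotype difference was 0.20 ± 0.27 with CFA (95% interval -0.32 to 0.73, edgeR adjusted p = 0.878) and 0.04 ± 0.27 with vehicle (95% interval -0.49 to 0.58, edgeR adjusted p = 0.95). Macrophages, which are known to be rich in ferroportin, had summed markers of 35.9 to 60.5 CPM in KI CFA, 44.1 to 67.5 CPM in KI vehicle, 45.7 to 69.2 CPM in WT CFA and 50.7 to 87.6 CPM in WT vehicle. All 10 macrophage markers were detected, and their part in the Slc40a1 values was not tested.

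The sensors differed in how they varied. Ireb2 (Entrez 64602, chr9:54862658-54912534) encodes IRP2, which is degraded when iron is plentiful. It had 74.2, 73.9, 83.5 and 78.3 CPM in KI CFA, against 71.2, 77.2, 72.9 and 71.4 CPM in WT CFA. It had 74.3, 81.3, 75.4 and 78.7 CPM in KI vehicle, against 70.1, 69.9, 76.7 and 68.6 CPM in WT vehicle. All 8 KI libraries lay above the WT mean, but the groups overlapped under both injections. As the mean of both injections the log2 difference was 0.10 ± 0.04 (95% interval 0.03 to 0.18, unadjusted p = 0.0169, edgeR adjusted p = 0.112), and it did not pass the test in any alternative (adjusted p from 0.0661 to 0.281).

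Aco1 (Entrez 11428, chr4:40143265-40199009) encodes IRP1, which acts as a cytosolic aconitase when it holds an iron-sulfur cluster. It had 26.6, 30.5, 28 and 32.3 CPM in KI CFA and 30.5, 28.9, 31.2 and 30.5 CPM in KI vehicle. In WT CFA it had 34.1, 33.3, 27.9 and 26.7 CPM and in WT vehicle 32.8, 32.2, 26 and 24 CPM. The WT libraries parted by the number in their source names: those numbered 6 to 9 had 24 to 27.9 CPM and those numbered 1 to 5 had 32.2 to 34.1 CPM, with both injections in each subset. Subsets did not overlap in this direction for 7.76% of genes, and 9.05% of genes were called by edgeR at this split in either direction. Fth1 also parted, with 1554 to 1971 CPM in numbers 6 to 9 and 1470 to 1519 CPM in 1 to 5, as for 7.14% of genes, higher in 6 to 9. For Aco1 it is a log2 difference of -0.34 ± 0.06, given without a test of its own because the split was known before. Between genotypes the log2 difference of Aco1 was -0.05 ± 0.10 with CFA (edgeR adjusted p = 0.923) and 0.07 ± 0.10 with vehicle (edgeR adjusted p = 0.716).

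**Figure D3:**
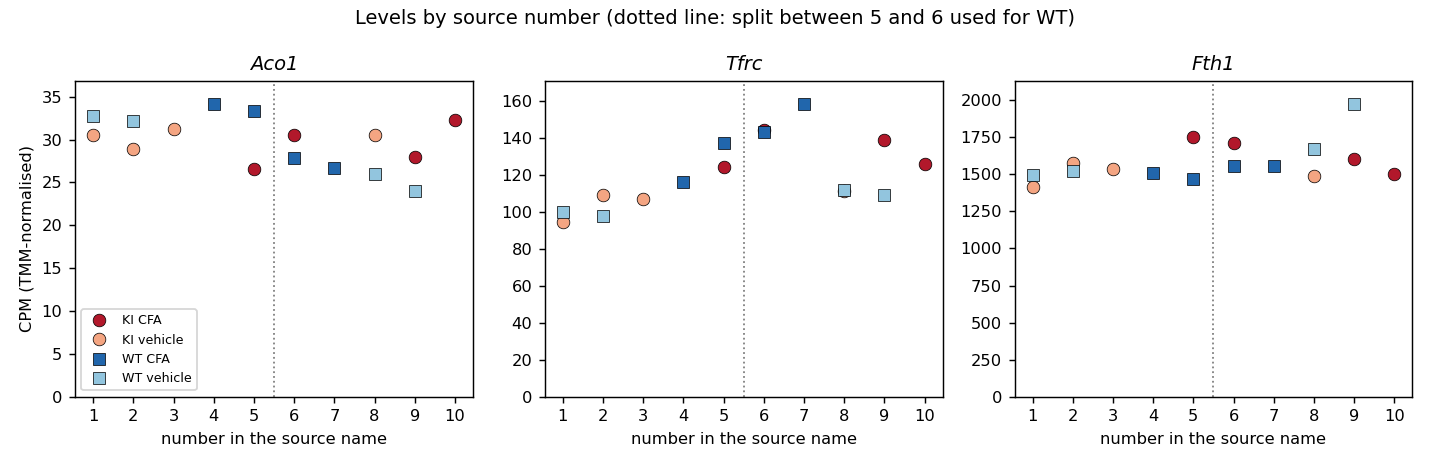
CPM (TMM-normalised) of Aco1, Tfrc and Fth1 against the number in each library's source name, with KI libraries as circles and WT libraries as squares; the dotted line marks the split between 5 and 6 used for WT. WT squares of Aco1 right of the line lie at 24 to 27.9 CPM and those left of it at 32.2 to 34.1 CPM.

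Counted together, 0 of the 8 genes were called by edgeR between KI and WT with vehicle, where 4.34% of all genes were called, and 0 of 8 with CFA, where 2.84% were. As the mean of both injections it was 0 of 8, against 8.96% of all genes. At an unadjusted p under 0.05 there were 2 (Ftl1 and Ireb2) with vehicle, where 23.8% of all genes had one, 0 with CFA (12.7%) and 2 (again Ftl1 and Ireb2) for the mean (24.4%). DESeq2 and limma-voom also called 0 of the 8 in each of these comparisons. The median log2 difference of the 8 was 0.03 with vehicle, 0.04 with CFA and 0.02 for the mean, and that of all genes was 0.00 in each. For the interaction of genotype and injection, edgeR, DESeq2 and limma-voom called 0 genes of all 15507 (0%), with 976 (6.29%) at an unadjusted p under 0.05 in edgeR. Of the 7 members tested for it, Fth1 had an unadjusted p under 0.05.

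Further iron genes were read from 6 lists of uptake, export, storage, mitochondrial iron, haem synthesis and haem handling, which named 53 genes, 48 of them tested. Between KI and WT with vehicle 1 rose and 1 fell, which is 4.17% called, near the 4.34% of all genes. With CFA 0 rose and 1 fell, or 2.08% against 2.84%, and for the mean 2 rose and 3 fell, or 10.4% against 8.96%. No iron gene was called for the interaction by edgeR, DESeq2 or limma-voom, and 3 had an unadjusted p under 0.05 in edgeR.

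Steap3, the ferrireductase that reduces iron in the endosome of the transferrin cycle, fell in KI. With CFA it had 58.9, 50.8, 49.2 and 67.9 CPM in KI, against 88, 88.6, 89 and 85 CPM in WT. The groups did not overlap, as for 4.44% of genes, lower in KI. The log2 difference was -0.63 ± 0.10 (edgeR adjusted p = 0.00124), and the call held in every alternative run. With vehicle it had 73.1, 52.3, 60.4 and 62.3 CPM in KI, against 73.8, 76.1, 71.2 and 84.6 CPM in WT, with 1 KI library inside the WT range. That difference was -0.30 ± 0.10 and was not called (edgeR adjusted p = 0.0776), though DESeq2 called it (adjusted p = 0.0432). The mean of both injections was -0.47 ± 0.07 (edgeR adjusted p = 0.000247), and the difference between injections was not called (-0.33, edgeR adjusted p = 0.718). The reductase of the cycle was lower in KI, while for the receptor (Tfrc) no genotype difference passed the test.

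**Figure D4:**
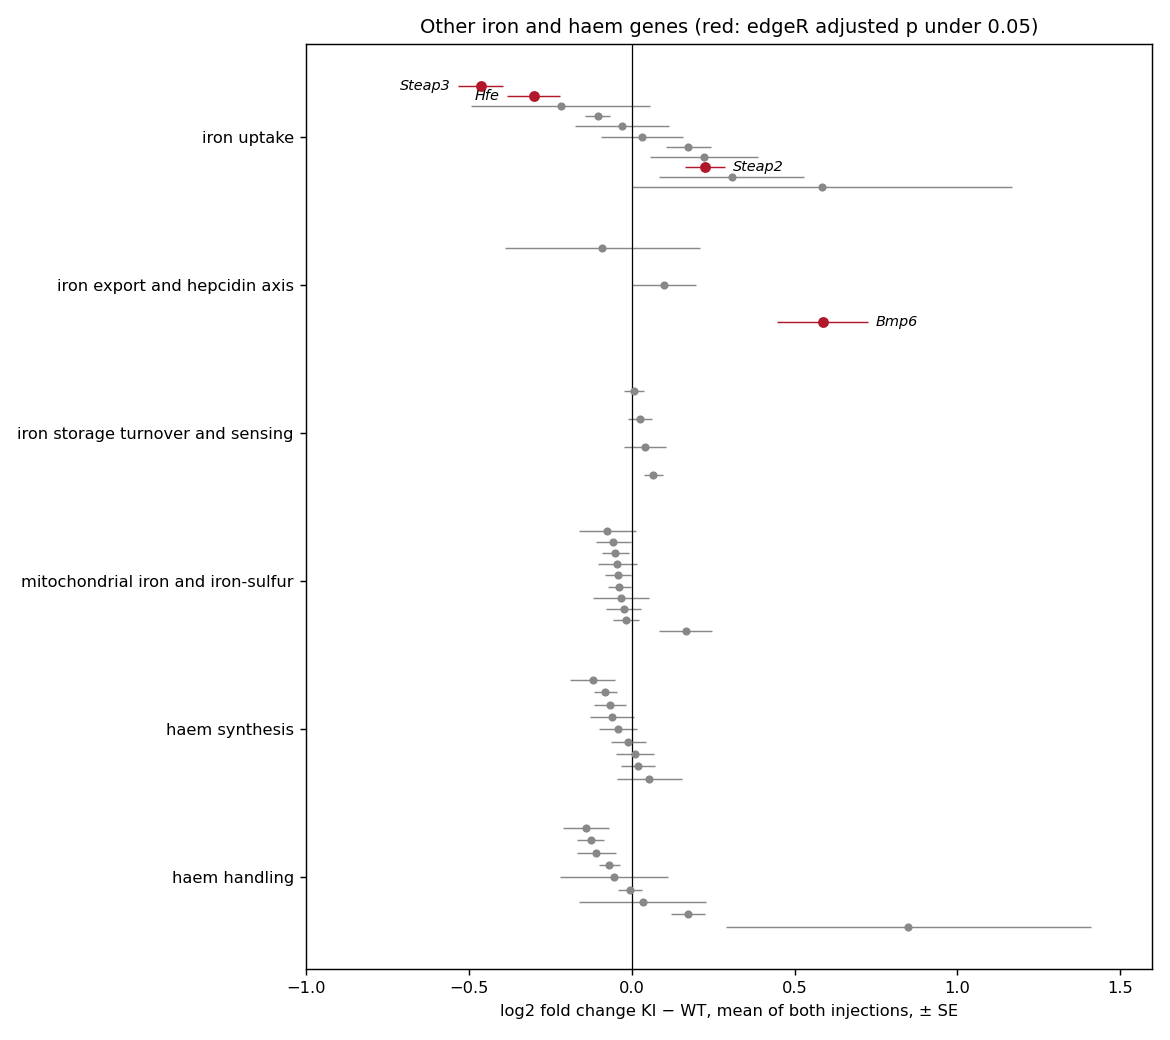
Log2 fold change of KI minus WT, as the mean of both injections, ± SE (horizontal axis) for 46 of the 48 tested iron and haem genes, grouped by list; red marks an edgeR adjusted p under 0.05. Hfe2 (3.02) lies outside the axis and 1 gene is not shown; the called genes shown are Steap3, Hfe, Steap2 and Bmp6.

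Hfe, Bmp6 and Steap2 were also called. Hfe, which binds the transferrin receptor at the cell surface, had 7.83, 6.1, 6.52 and 5.63 CPM in KI CFA against 7.09, 7.83, 8.76 and 8.99 CPM in WT CFA. It had 6.45, 7.6, 7.26 and 7.64 CPM in KI vehicle against 7.92, 8.56, 9.18 and 9.46 CPM in WT vehicle. All 8 KI libraries lay below the WT mean, and Hfe fell by 0.30 ± 0.08 on the log2 scale over both injections (edgeR adjusted p = 0.0262). The call was lost in 5 of the 16 fits that left out 1 library, namely KI CFA 2 (-0.28), KI CFA 4 (-0.27), KI vehicle 1 (-0.28), WT CFA 3 (-0.28) and WT CFA 4 (-0.28). It was also lost with the muscle score as a covariate (-0.28, adjusted p = 0.109), without KI CFA 3 and WT vehicle 4 (-0.28, adjusted p = 0.0727) and without KI vehicle 1 and 4 (-0.28, adjusted p = 0.1).

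Bmp6, the signal that induces hepcidin in liver, had 5.41, 4.72, 4.18 and 2.8 CPM in KI CFA against 2.96, 3.49, 2.49 and 2.82 CPM in WT CFA. It had 5.09, 4.08, 4.64 and 6.63 CPM in KI vehicle against 3.36, 3.44, 3.78 and 2.54 CPM in WT vehicle. It was above the WT mean in 7 of 8 KI libraries and rose by 0.59 ± 0.14 over both injections (edgeR adjusted p = 0.0129). The call held without each library in turn. It ended with the skeletal muscle score as a covariate (0.47, adjusted p = 0.11) and without KI vehicle 1 and 4 (0.47, adjusted p = 0.0892), the libraries with the highest muscle sums. The score itself differs with genotype, and the part of muscle in the Bmp6, Hfe and Steap2 calls was not tested.

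Steap2, a metalloreductase related to Steap3, moved the other way. It had 26.5, 26.5, 27.5 and 29.7 CPM in KI vehicle against 24.4, 21.7, 22.6 and 18.4 CPM in WT vehicle, without overlap, as for 6.67% of genes, higher in KI. It rose by 0.34 ± 0.09 (edgeR adjusted p = 0.0389). With CFA it had 23.3, 23.6, 23.8 and 29 CPM in KI and 24.3, 23.3, 23.2 and 21.6 CPM in WT (0.11 ± 0.09, edgeR adjusted p = 0.716). The vehicle call ended without any KI vehicle library (0.30 to 0.36) or without WT vehicle 2, 3 or 4 (0.27 to 0.36). It also ended with the replicate number as a block (adjusted p = 0.067), the muscle score as a covariate (0.0718) or only the groups compared (0.0895), without KI CFA 3 and WT vehicle 4 (0.112), and without KI vehicle 1 and 4 (0.242). The call over both injections (0.22 ± 0.06, edgeR adjusted p = 0.0298) was lost when replicate 4 of KI CFA (0.18), of KI vehicle (0.21) or of WT CFA (0.21) was left out. That call was also lost with the block (adjusted p = 0.0547), with the muscle score (0.0648), without KI CFA 3 and WT vehicle 4 (0.0522) and without KI vehicle 1 and 4 (0.11).

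**Figure D5:**
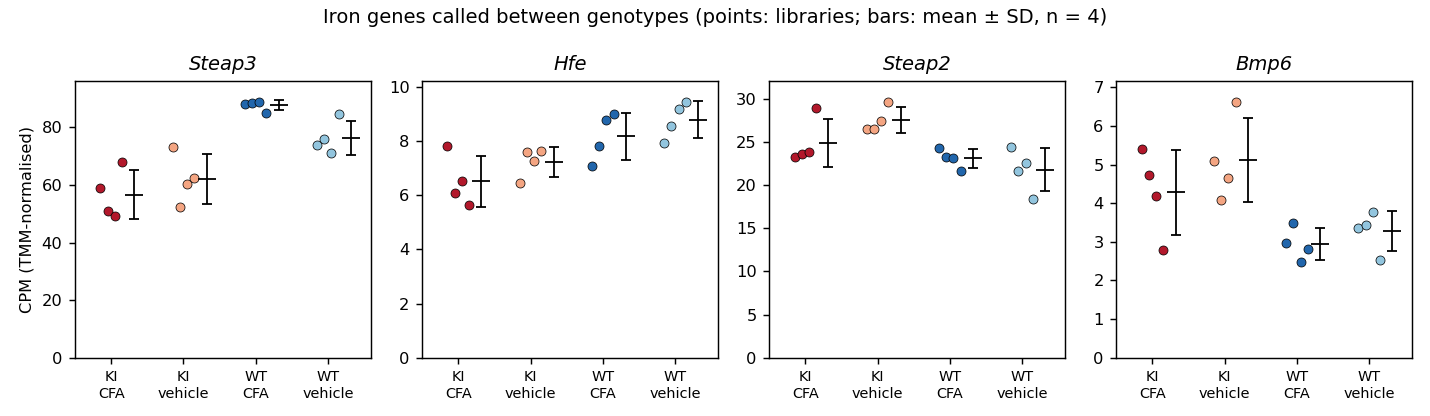
CPM (TMM-normalised, vertical axes from 0) of Steap3, Hfe, Steap2 and Bmp6 in each library of the KI CFA, KI vehicle, WT CFA and WT vehicle groups; points are libraries and bars are the mean ± SD (n = 4). Steap3 separates KI CFA (49.2 to 67.9 CPM) from WT CFA (85 to 89 CPM).

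In the edgeR fit to all 16 libraries no gene was called between genotypes in the lists of storage, mitochondrial iron, haem handling, other iron-responsive transcripts, hypoxia and proliferation. Of the 4 tested genes of storage, turnover and sensing, Ncoa4, the receptor that sends ferritin to lysosomes, was nearest, with a log2 difference of 0.07 ± 0.03 over both injections (edgeR adjusted p = 0.192) and all 8 KI libraries above the WT mean. Ftmt, mitochondrial ferritin, was listed at 0 in every library. Of the 9 tested haem handling genes, Hmox1, which breaks down haem and frees its iron, had a log2 difference of 0.17 ± 0.05 over both injections (edgeR adjusted p = 0.0502), at the edge of the threshold. It was called in 3 of the 16 fits that left out 1 library (adjusted p from 0.0131 to 0.0958) and in 6 of 10 other alternatives, DESeq2 and limma-voom among them (adjusted p from 0.0196 to 0.112). Of the 5 other transcripts known to carry iron-responsive elements, Cdc42bpa was nearest, at 0.17 ± 0.06 (edgeR adjusted p = 0.0761), and it was called in 2 of 16 such fits (0.0479 to 0.152) and 2 of 10 other alternatives (0.0077 to 0.211). All 10 mitochondrial, 10 hypoxia and 10 proliferation genes were also tested and not called in that fit.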

How the data were processed

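The authors deposited a table of raw counts of reads for each gene, not normalized. Per the labels' protocols, poly-A libraries were made from 150 ng of RNA with 15 PCR cycles, and 50 nucleotides were read from a single end. HTSeq 0.6.1p1, TopHat2 2.1.1, SAMtools 1.5, bcl2fastq 2.20, Bowtie2 2.3.5.1 and FastQC were used with mm10, per the submitters' processing notes. The annotation, strand mode and treatment of reads with several matches are not given in the sources used here. Depth was 22742209 to 40910947 counts per library; PCR duplicates cannot be recognised in a count table.

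The members and lists were chosen with earlier results of these data known. Counts were analysed with edgeR 4.0.16 in R 4.3.3: TMM factors, filterByExpr (15507 of 24982 entries), a quasi-likelihood fit of 4 group means to all 16 libraries, 7 contrasts and Benjamini-Hochberg adjustment over all genes tested, with calls at an adjusted p under 0.05. The script was tested on simulated counts for KI against WT with vehicle, with 50 genes changed at each fold. It recovered 84% of 1.5-fold and 96% of 2-fold changes, and 8.74% of the genes it called had not been changed. CPM values are TMM-normalised, and log2 CPM used a prior count of 2. Intervals are 95%, from 1.96 SE. The text names all members, of each list at most the 3 genes with the smallest p for the mean genotype difference plus any called, and the 5 genes most correlated with Tfrc; within lists not all of these are printed, and those printed were picked after their values were seen. Results for some genes that the rule gave are not reported here. Ratios were added after seeing the data. Hairpins came from GENCODE M21 transcripts, and gene positions from RefSeq on the same assembly.

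Alternatives were DESeq2 1.42.0, 2 other filters, RLE size factors, limma-voom (limma 3.58.1) with quality weights, only the groups compared, a replicate block, WT source number or skeletal muscle score as a covariate, and leaving out each library in turn. Fits without KI CFA 3 and WT vehicle 4, and without KI vehicle 1 and 4, were chosen after seeing the data. The replicate numbers come from the titles, and nothing in the labels says that they mark a shared day or litter.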

Additional observations from a re-analysis of the deposited data

Results flagged for a closer look

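In WT vehicle, the Ftl1 level of WT vehicle 4 was 669 CPM, far above the other 3 libraries of its group (542, 558 and 559 CPM). It was the 1 value that stood apart in this way among 32 groups of 4 libraries examined (8 genes in 4 groups), where chance gives about 1 in 20. The same library had the highest Fth1 level (1971 CPM) and the highest summed satellite glia markers (5068 CPM, at most 3981 in the others); their part in the Ftl1 value was not tested.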

How the results depend on the processing

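Of 822 comparisons of a tested member difference with its main value over all alternatives, 821 kept their side of the threshold. The exception was Ftl1 between genotypes with vehicle under WT source number as a covariate, so that 1 member was called there. The 666 values of member differences given without a test, the CFA differences among them, all moved by less than the spread between replicates (1 SD). Leaving out 1 of the 4 libraries of a group can hardly move its mean by more than that. For those fits the result was therefore nearly fixed in advance and says little about stability. No call of a member reversed.

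Counts of genes called moved more. For KI against WT with vehicle (673) they were 1476 with DESeq2, 1999 with WT source number and 303 with the muscle score as a covariate, 214 with only the groups compared, 357 without KI CFA 3 and WT vehicle 4, 132 without KI vehicle 1 and 4, and 284 to 905 without each library in turn. There the count dropped by over 1.5 times when KI vehicle 1 (354), KI vehicle 2 (408), KI vehicle 3 (410), KI vehicle 4 (284), WT vehicle 3 (367) or WT vehicle 4 (401) was left out. For KI against WT with CFA (441) they were 667 with DESeq2 and 241 to 652 without each library, dropping most without KI CFA 2 (267), KI CFA 3 (241) or WT CFA 2 (289). For the mean genotype difference (1390) they were 2171 with WT source number, 797 with the muscle score, 778 without KI vehicle 1 and 4, and 993 to 1430 without each library. For the mean CFA difference (4) they were 2 without a filter, 57 with DESeq2, 7 with limma-voom, 1 with the replicate block, 0 with the muscle score, 1 without KI CFA 3 and WT vehicle 4, 0 without KI vehicle 1 and 4, and 0 to 39 without each library. It was 39 without KI vehicle 2, 7 without KI CFA 1, 2 without WT CFA 1 and 1 without WT vehicle 2, and 0 without any other library but WT vehicle 4. For CFA in WT (0) they were 11 with DESeq2, 1 with limma-voom and 0 to 2 without each library. For CFA in KI (0) they were 15 with DESeq2, 1 with only the groups compared and 0 to 53 without each library, with 53 without KI vehicle 2. The causes were not tested.

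Of 24 correlations of the deviations of same-numbered libraries, 3 were over 0.1 (range -0.207 to 0.133). With 4 libraries in each group these cannot decide whether the replicate numbers pair libraries. In both WT groups, replicates 1 and 2 had source numbers from 1 to 5, and replicates 3 and 4 had source numbers from 6 to 9. With the replicate block 484 genes were called with vehicle, 422 with CFA and 1231 for the mean, and no member was called. Slc40a1 is limited by depth. Shared sequence limits Ftl1 and Trf, and each group holds 4 pools.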

Other observations

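Hfe2 (hemojuvelin, a co-receptor for BMP signals that skeletal muscle is known to express) was read mainly in KI vehicle libraries. It had 5.64, 0, 0.58 and 3.89 CPM in KI vehicle, against 0.0707, 0, 0 and 0.532 CPM in WT vehicle, and at most 0.259 CPM in any CFA library. The summed skeletal muscle markers were 985, 107, 188 and 860 CPM in the same KI vehicle libraries, against 80, 48.5, 57.1 and 158 CPM in WT vehicle. The Hfe2 difference with vehicle was not called (edgeR adjusted p = 0.0576), and the part of muscle in it was not tested.

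Slc25a37 (mitoferrin, which brings iron into mitochondria) had its highest level, 20.5 CPM, in KI CFA 3, and lay between 11.6 and 16.3 CPM in the other 15 libraries. KI CFA 3 also had the highest erythroid sum, 28.6 CPM, against at most 2.65 CPM in the others, and the highest Mki67, 14.7 CPM, against at most 4.5 CPM.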
